A study of Homo sapiens with 24 samples.

Results

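The human proteasome genes were taken from the deposited table as those whose symbol starts with PSMA, PSMB, PSMC, PSMD, PSME, PSMF or PSMG followed by a digit. Antisense RNAs and a gene that is not reported here were left out, and 48 genes of 30373 in the table remained. By role they comprised 7 alpha ring subunits (PSMA1 to PSMA7), 4 structural beta subunits (PSMB1 to PSMB4), 3 constitutive catalytic subunits (PSMB5, PSMB6, PSMB7) and 2 inducible catalytic subunits (PSMB8, PSMB10) of the core particle. The regulatory particle gave 6 ATPases (PSMC1 to PSMC6) and 11 non-ATPase subunits, and 3 chaperones of its base (PSMD5, PSMD9, PSMD10) were counted apart. The remaining genes were 4 activators (PSME1 to PSME4), the inhibitor PSMF1, 4 core assembly chaperones (PSMG1 to PSMG4) and the tissue restricted subunits PSMA8 and PSMB11. PSMC3IP matched by its symbol only, since it encodes a recombination factor, and it was kept out of the role groups. Below, the 31 alpha, beta, ATPase and non-ATPase genes other than the inducible and tissue restricted ones are called the constitutive subunits, and PSMB8, PSMB10, PSME1 and PSME2 the immunoproteasome genes.

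Poly-A RNA of 4 established human cell lines was sequenced after 24 h of treatment, in 24 libraries. SKM-1, MV-4-11 and Kasumi-1 derive from acute myeloid leukaemia and NCI-H1299 from non-small cell lung cancer, and every line received DMSO as vehicle, ABBV-075 at 100 nM or ABBV-744 at 200 nM. Each of the 12 groups held 2 libraries, so every standard error below rests on n = 2 libraries per group and on a spread shared across groups. Whether the 2 libraries came from separate cultures is not in the labels, so the p-values measure the spread between these libraries, which may be technical. ABBV-075 is an inhibitor of both bromodomains of the BET proteins, readers of acetylated chromatin, and ABBV-744 is selective for the second bromodomain. The doses differ, so each comparison between the compounds holds at these doses, and both compounds were set against the same DMSO libraries.

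The proteasome degrades proteins marked with ubiquitin. Its barrel-shaped core particle holds alpha rings that gate the entry and beta rings with the cutting sites, and the regulatory particle recognises ubiquitin, unfolds the substrate with its ATPases and feeds it into the core. Under interferon, and constitutively in many blood cells, the catalytic subunits PSMB5 and PSMB7 are replaced by PSMB8 and PSMB10. The core then cuts peptides for presentation on MHC class I, often with the activator made of PSME1 and PSME2.

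Values were FPKM, fragments per kilobase scaled to library size, and were analysed as log2(FPKM + 1), which understates changes of low genes. A gene was tested in a line where it reached 1 FPKM in at least 2 libraries, and was called at an adjusted p under 0.05 in limma, so all adjusted p-values below are limma's with Benjamini-Hochberg adjustment over all genes tested. Of the 48 genes, 47 reached this level in at least 1 line and 46 in every line, with PSMA8 passing in MV-4-11 alone and PSMB11 in no line. The FPKM sum per library lay between 543426 and 719215, and the depth of the libraries is unknown. All 7 haematopoietic markers reached 1 FPKM in each leukaemia line and 2 of 7 in NCI-H1299. All 6 carcinoma markers did so in NCI-H1299, 1 of 6 in SKM-1, 3 of 6 in MV-4-11 and 1 of 6 in Kasumi-1. The SKM-1 DMSO libraries stood apart from each other: the log2 difference between replicates had an SD of 0.64 over all genes and 0.79 over the constitutive subunits, and mitochondrial transcripts made up 9.13% of replicate 1 and 22.3% of replicate 2. The Kasumi-1 libraries with ABBV-075 followed at 0.45 over all genes and 0.45 over the constitutive subunits, against 0.19 to 0.30 over all genes in the other 10 groups. Calls of a compound against DMSO that were lost without one of these libraries are given with the values without it. Values that were called only when one was left out are given for some genes. An uncalled SKM-1 or Kasumi-1 value below can thus depend on 1 library. As in any bulk sample, fewer cells of a kind and less RNA per cell cannot be told apart. As a check of the treatments, HEXIM1, a transcript that rises on BET inhibition, was higher in all 4 lines with ABBV-075 (log2 differences 1.93 to 2.97) and with ABBV-744 (0.61 to 1.01).

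Promoters are shown first for the 4 genes that fell and the 1 that rose with ABBV-075 in every line, and for PSMB10. Of all 10180 genes tested in every line, 7.75% fell and 7.97% rose in all 4, beside 4 and 1 of 46 proteasome genes. The genes shown were chosen after their values had been seen. PSMB5, PSMB8, PSMC3 and PSMG4 are the genes that fell, and PSME4 is the gene that rose. PSMB10, called lower in 2 lines, is another inducible catalytic subunit. Each window is the 250 bases before the annotated start, from RefSeq on GRCh38.p14, 5′ to 3′ on the strand of the gene. They lie at chr6:32844680-32844929 (minus strand), chr16:67936851-67937100 (minus), chr14:23035221-23035470 (minus), chr11:47426440-47426689 (minus), chr6:3258697-3258946 (plus) and chr2:53970994-53971243 (minus). Capitals mark a match, on either strand, to 1 of 4 motifs: the interferon-stimulated response element core (GAAA, any 2 bases, GAAA), the antioxidant response element core TGACNNNGC, the E-box CACGTG and the CCAAT box.

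PSMB8: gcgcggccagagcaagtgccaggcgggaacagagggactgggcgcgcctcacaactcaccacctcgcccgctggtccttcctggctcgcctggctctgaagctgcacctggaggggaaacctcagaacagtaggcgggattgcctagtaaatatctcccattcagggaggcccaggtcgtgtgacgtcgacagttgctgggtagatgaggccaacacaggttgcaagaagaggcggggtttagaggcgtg
PSMB10: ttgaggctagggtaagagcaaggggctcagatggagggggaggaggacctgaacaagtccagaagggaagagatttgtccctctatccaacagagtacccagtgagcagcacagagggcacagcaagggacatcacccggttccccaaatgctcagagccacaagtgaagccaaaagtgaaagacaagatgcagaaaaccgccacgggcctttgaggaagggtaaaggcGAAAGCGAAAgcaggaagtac
PSMB5: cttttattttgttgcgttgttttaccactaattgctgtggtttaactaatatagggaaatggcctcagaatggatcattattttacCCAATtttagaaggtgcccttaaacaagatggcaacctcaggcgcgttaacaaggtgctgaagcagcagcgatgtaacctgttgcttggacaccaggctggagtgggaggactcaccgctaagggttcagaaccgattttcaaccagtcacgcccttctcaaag
PSMC3: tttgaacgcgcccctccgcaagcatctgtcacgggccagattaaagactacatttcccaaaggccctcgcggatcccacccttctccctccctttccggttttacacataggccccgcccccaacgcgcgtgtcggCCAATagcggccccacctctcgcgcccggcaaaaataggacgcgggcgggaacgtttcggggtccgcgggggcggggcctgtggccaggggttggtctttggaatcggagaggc
PSMG4: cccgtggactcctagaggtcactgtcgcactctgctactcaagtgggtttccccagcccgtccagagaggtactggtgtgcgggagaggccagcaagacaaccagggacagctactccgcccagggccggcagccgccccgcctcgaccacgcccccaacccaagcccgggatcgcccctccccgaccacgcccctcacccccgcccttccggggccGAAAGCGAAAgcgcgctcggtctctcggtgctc
PSME4: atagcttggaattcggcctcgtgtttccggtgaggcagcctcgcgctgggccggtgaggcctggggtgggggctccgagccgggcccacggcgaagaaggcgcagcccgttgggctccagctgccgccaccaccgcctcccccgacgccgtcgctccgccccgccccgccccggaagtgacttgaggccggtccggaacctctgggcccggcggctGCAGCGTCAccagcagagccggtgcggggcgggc

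PSMB10 and PSMG4 both carry GAAAGCGAAA close to their start, PSMB5 and PSMC3 each carry a CCAAT box, PSME4 carries the antioxidant core on the opposite strand, and the PSMB8 window holds none of the 4 motifs. Second windows of PSMB8 and PSMB5, which start at other annotated starts, hold none either. RefSeq windows were matched for 42 of the 48 genes, 52 windows in all. The interferon core was found in 5 of these 52 windows (9.62%), those of PSMA4, PSMB4, PSMB10, PSME2 and PSMG4, against 3.02% of all 35116 promoter windows. TGACNNNGC was found in 12 windows (23.1%) against 10.9%, CCAAT in 20 (38.5%) against 32%, and CACGTG in 3 (5.77%) against 6.34%. The median GC content was 61.6% in the proteasome windows and 58% in all. A match is a description of the letters, and its absence says only that these letters are not in the window.

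In DMSO the constitutive subunits were among the more abundant transcripts of every line. Their median level was 94.0 FPKM in SKM-1, 100.5 in MV-4-11, 104 in Kasumi-1 and 171 in NCI-H1299, at percentiles 93.8, 93.5, 94.3 and 96.4 of the genes of the line. The most abundant constitutive subunit was PSMA4 in SKM-1 (315 FPKM), PSMA6 in MV-4-11 (309), PSMA2 in Kasumi-1 (302) and PSMB1 in NCI-H1299 (505). The immunoproteasome genes had medians of 56.8, 114, 64.4 and 39.4 FPKM in the same order of lines. NCI-H1299 had the highest median of the constitutive subunits and the lowest of the immunoproteasome genes.

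**Figure D1:**
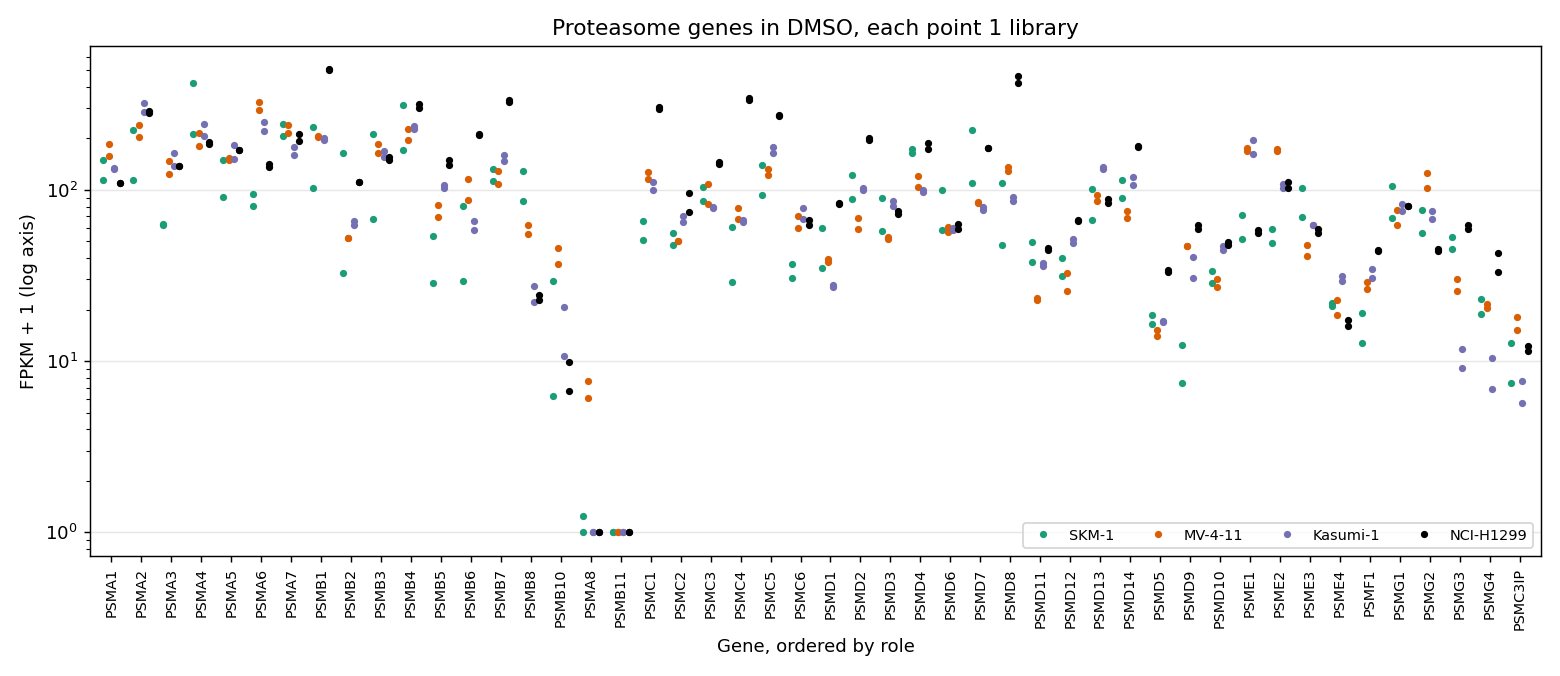
FPKM + 1 on a log axis for each proteasome gene in the DMSO libraries, with 1 point per library, 2 libraries per line and the line given by colour. PSMA8 lies above 1 FPKM in MV-4-11 alone, PSMB11 is near 0 in every line, and the NCI-H1299 points of PSMC4 (342 and 336 FPKM) and PSMD8 (460.4 and 421 FPKM) lie above those of the leukaemia lines.

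In the mean of the 3 leukaemia lines minus NCI-H1299, 7 of 46 genes were called higher and 25 lower, where 29.3% and 35.9% of all 10180 genes tested were. Among the constitutive subunits 2 of 31 were higher and 19 lower, with a median log2 difference of -0.58 against -0.07 over all genes tested. Among the 4 immunoproteasome genes 3 were higher and 0 lower, with a median of 1.14. All 3 constitutive catalytic subunits were lower in the leukaemia lines: PSMB5 by -1.10 ± 0.20 (SE), PSMB6 by -1.65 ± 0.28 and PSMB7 by -1.35 ± 0.09 on the log2 scale. The ATPase PSMC4, which helps to unfold the substrate, lay at 342 and 336 FPKM in NCI-H1299 and at 59.5 and 28.0 in SKM-1, 66.9 and 77.8 in MV-4-11 and 65.9 and 64.2 in Kasumi-1. The groups did not overlap, and the log2 difference was -2.53 ± 0.21 (SE), adjusted p = 3.32e-08. PSMD8, a subunit of the lid, differed by -2.22 ± 0.21 (SE), adjusted p = 1.64e-07, and the ATPase PSMC1 by -1.74 ± 0.10 (SE), adjusted p = 3.96e-10. The alpha ring did not share this pattern: PSMA1 (0.39) and PSMA6 (0.42) were higher in the leukaemia lines, PSMA3 was lower (-0.34), and the other 4 were not called. The PSMA3 and PSMA6 calls were lost without NCI-H1299 DMSO replicate 1 or NCI-H1299 DMSO replicate 2 (-0.34, adjusted p = 0.0946 to 0.101) and without NCI-H1299 DMSO replicate 2 (0.39, adjusted p = 0.0541).

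PSMB8, the inducible counterpart of PSMB5, read 128 and 85.0 FPKM in the SKM-1 DMSO libraries, 54.1 and 61.4 in MV-4-11, 26.4 and 21.3 in Kasumi-1 and 21.7 and 23.4 in NCI-H1299. SKM-1 was highest and MV-4-11 next, with no overlap between neighbours, while the Kasumi-1 and NCI-H1299 libraries overlapped. SKM-1 exceeded MV-4-11 by 0.84 ± 0.21 (SE), adjusted p = 0.00275 (0.55 without SKM-1 DMSO replicate 1), and MV-4-11 exceeded Kasumi-1 by 1.25 ± 0.21 (SE), adjusted p = 0.000105, whereas Kasumi-1 minus NCI-H1299 was 0.07 with a 95% interval of -0.37 to 0.52 and was not called. PSMB10, the counterpart of PSMB7, read 35.9 and 45.1 FPKM in MV-4-11, 28.2 and 5.29 in SKM-1, 19.6 and 9.68 in Kasumi-1 and 8.95 and 5.70 in NCI-H1299. Both MV-4-11 libraries lay above those of the other lines, and the SKM-1 pair spanned the Kasumi-1 values and overlapped NCI-H1299. Kasumi-1 minus NCI-H1299 was 0.86 (95% interval -0.29 to 2.01) and was not called. PSMB10 was called higher in the leukaemia mean than in NCI-H1299 (1.31), a call lost without NCI-H1299 DMSO replicate 2 (1.02, adjusted p = 0.16). MV-4-11 exceeded SKM-1 by a called amount (-1.61 for SKM-1 minus MV-4-11) that was lost without SKM-1 DMSO replicate 2 or MV-4-11 DMSO replicate 2 (-1.45 to -0.50, adjusted p = 0.0971 to 0.344). PSME1, an activator subunit, ranged from 50.7 and 70.3 FPKM in SKM-1 and 54.98 and 57.7 in NCI-H1299 to 174 and 167 in MV-4-11 and 195 and 161 in Kasumi-1. Its partner PSME2 was highest in MV-4-11 (168 and 173 FPKM) and lowest in SKM-1 (58.1 and 48.1), and its leukaemia mean did not differ from NCI-H1299 by a called amount (-0.11, 95% interval -0.36 to 0.13). SKM-1 thus held the most PSMB8 and the least PSME2 of the 4 lines.

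FPKM is scaled by length, so PSMB8 and PSMB5 can be set side by side within a library. In DMSO the ratio of PSMB8 to PSMB5 was 2.42 and 3.099 in SKM-1, 0.793 and 0.762 in MV-4-11, 0.249 and 0.209 in Kasumi-1 and 0.145 and 0.168 in NCI-H1299. PSMB8 exceeded PSMB5 in SKM-1 alone. With ABBV-075 the ratio was 1.89 and 1.66, 0.662 and 0.674, 0.177 and 0.162 and 0.0916 and 0.0891, below both DMSO libraries of the same line in all 4 lines. With ABBV-744 it was 2.88 and 2.55, 0.74 and 0.697, 0.247 and 0.219 and 0.11 and 0.106, which was below both DMSO libraries in MV-4-11 and NCI-H1299 and within their range in SKM-1 and Kasumi-1. The ratio of PSMB10 to PSMB7 stayed below 1 in every library, from 0.00910 to 0.485. With ABBV-075 it lay below both DMSO libraries in MV-4-11, Kasumi-1 and NCI-H1299. In SKM-1 it was 0.101 and 0.0671, within the DMSO range of 0.0472 to 0.216. With ABBV-744 it lay below both DMSO libraries in NCI-H1299 and within their range in Kasumi-1. In MV-4-11 it was then 0.383 and 0.485, above both DMSO libraries (0.335 and 0.354), and in SKM-1 0.197 and 0.263. These ratios describe 2 libraries per group and were not tested.

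Between single lines in DMSO, 10 proteasome genes were higher and 16 lower in SKM-1 than in MV-4-11 (27.4% and 29.3% of all genes tested), and 9 and 18 in SKM-1 than in Kasumi-1 (31.8% and 23.9%). MV-4-11 minus Kasumi-1 gave 11 and 11 (32.7% and 23%). Against NCI-H1299, 5 were higher and 25 lower in SKM-1 (29% and 34.5%), 8 and 25 in MV-4-11 (29.4% and 34%), and 5 and 19 in Kasumi-1 (25.6% and 37.2%). Fewer higher than lower calls were thus seen in each leukaemia line, both among the proteasome genes and among all genes tested. These comparisons share the same NCI-H1299 DMSO libraries.

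**Figure D2:**
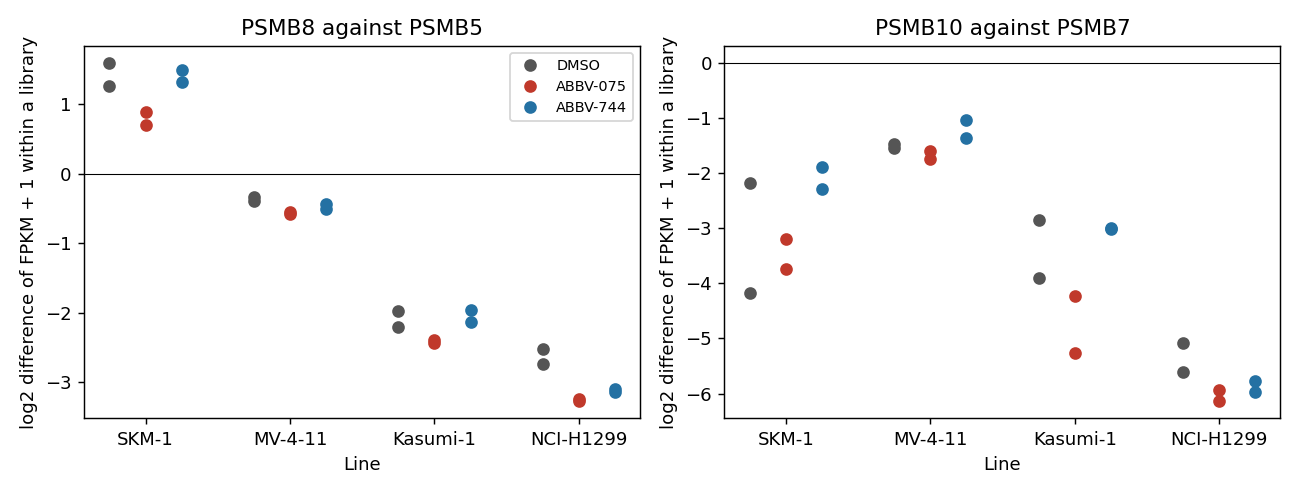
Difference of log2(FPKM + 1) between PSMB8 and PSMB5 (left) and between PSMB10 and PSMB7 (right) in each of the 24 libraries, by line on the horizontal axis and treatment by colour. The 6 SKM-1 libraries are the points above 0 in the left panel, and no point lies above 0 in the right panel.

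With ABBV-075, 14 of 46 proteasome genes were called lower than DMSO in SKM-1, 12 of 47 in MV-4-11, 19 of 46 in Kasumi-1 and 18 of 46 in NCI-H1299. Those called higher numbered 6, 4, 2 and 1. Of all genes tested, 29.2%, 22.1%, 32.6% and 26.5% were called lower in the same lines, and 32%, 20.3%, 24.7% and 20.6% higher. PSMB5, PSMB8, the ATPase PSMC3 and the assembly chaperone PSMG4 fell in all 4 lines, and the activator PSME4 rose in all 4. These are 4 and 1 of the 46 genes tested in every line, where 7.75% of all 10180 such genes fell and 7.97% rose in all 4 lines. The number that fell was near that share of all genes. By role the 4 genes that fell belong to the catalytic beta ring, the ATPase ring and core assembly.

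**Figure D3:**
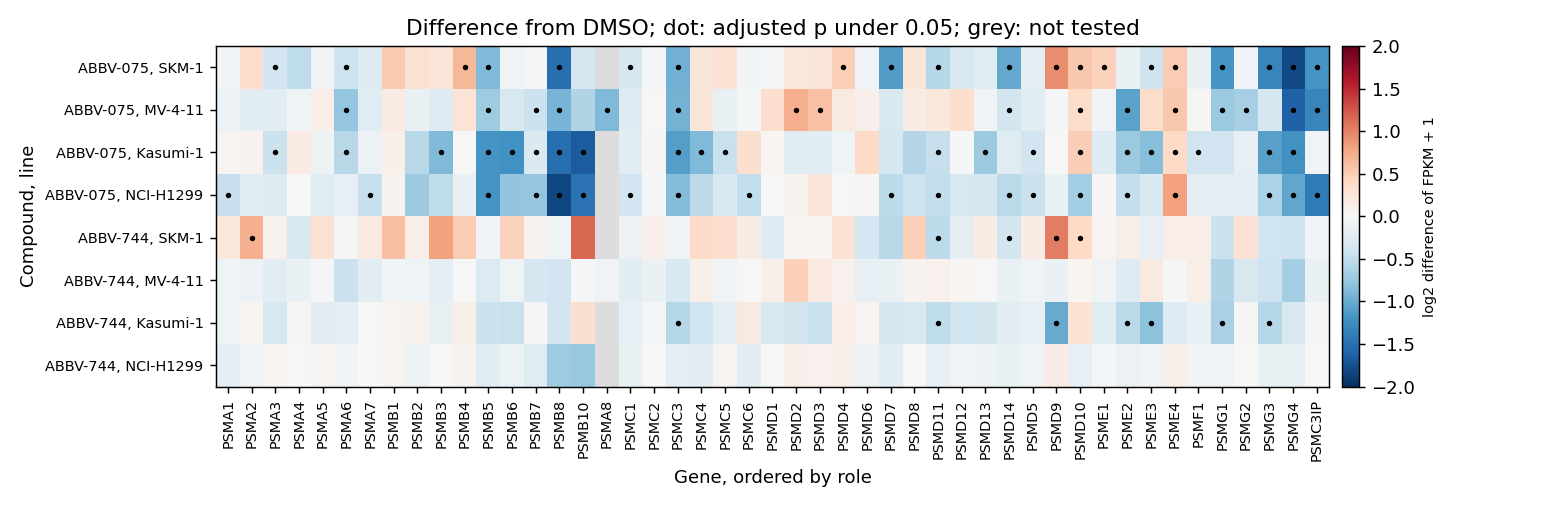
Colour gives the log2 difference of FPKM + 1 from DMSO for each proteasome gene that was tested (horizontal axis, by role) with each compound in each line (vertical axis), and a dot marks an adjusted p under 0.05 in limma. The columns of PSMB5, PSMB8, PSMC3 and PSMG4 are blue with a dot in the 4 upper bands, PSME4 is red with a dot there, and grey marks genes not tested in a line.

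In the fit over all 24 libraries, most of the constitutive subunits were called in no direction in each line. Their median log2 difference with ABBV-075 was -0.05 in SKM-1, -0.09 in MV-4-11, -0.23 in Kasumi-1 and -0.35 in NCI-H1299, where the medians of all genes tested were 0.05, -0.01, -0.09 and -0.06. Of the 31 constitutive subunits 2 rose and 8 fell in SKM-1, 2 and 5 in MV-4-11, 0 and 11 in Kasumi-1, and 0 and 10 in NCI-H1299. Of the 4 immunoproteasome genes 1 rose and 1 fell in SKM-1, 0 and 2 in MV-4-11, and 0 and 3 in Kasumi-1 and in NCI-H1299. In the same lines 32%, 20.3%, 24.7% and 20.6% of all genes tested rose, and 29.2%, 22.1%, 32.6% and 26.5% fell. In NCI-H1299 the sum of the constitutive subunits was 5771 ± 126 FPKM (SD, n = 2) in DMSO and 4627 ± 98.3 with ABBV-075. These were 0.994% and 0.850% of the FPKM sum over all genes. The constitutive sum was 3336 ± 514 and 3200 ± 145 FPKM in SKM-1 and 3614 ± 16.0 and 3353 ± 2.28 in MV-4-11. In Kasumi-1 it was 3761 ± 125 and 3244 ± 118 FPKM. The counts depended on single libraries. In SKM-1 the 20 calls became 28 without DMSO replicate 1 (14 higher, 14 lower) and 26 without DMSO replicate 2 (6 higher, 20 lower). In Kasumi-1 the 21 became 12 without ABBV-075 replicate 2, and in NCI-H1299 the 19 became 11 without DMSO replicate 1. With NCI-H1299 fitted alone, its 19 calls became 35.

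Some of the calls described below also ended under another choice of processing. Fitting each line alone ended those of PSMA3, PSMA6, PSMB4, PSMB5, PSMC1, PSMD10, PSMD11, PSMD4, PSMD9, PSME1, PSME3 and PSME4 in SKM-1 and PSMA3, PSMB7, PSMC5, PSMD11, PSMD5, PSME4 and PSMF1 in Kasumi-1, and left 8 lower and 0 higher in SKM-1. Centring each library on its median ended those of PSMD14 in MV-4-11, PSMA3, PSMB7, PSMD5 and PSMF1 in Kasumi-1 and PSMC1, PSMC6 and PSMD7 in NCI-H1299. Scaling to the sum of the nuclear genes ended those of PSME1 in SKM-1, PSMD14 in MV-4-11, PSMD5 in Kasumi-1 and PSMC1, PSMC6, PSMD11, PSMD5 and PSMD7 in NCI-H1299. Testing without a filter ended those of PSMB3, PSMB7, PSMC5 and PSMF1 in Kasumi-1 and PSMB10 and PSMD7 in NCI-H1299. PSMB5, PSMB8, PSMC3, PSMG4 and PSME4 kept their direction in every line under each of these choices.

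PSMB8 showed the largest fall among the catalytic subunits in SKM-1, MV-4-11 and NCI-H1299. From DMSO to ABBV-075 its FPKM went from 128 and 85.0 to 40.6 and 31.8 in SKM-1, from 54.1 and 61.4 to 28.5 and 31.2 in MV-4-11, from 26.4 and 21.3 to 10.1 and 5.79 in Kasumi-1 and from 21.7 and 23.4 to 5.83 and 5.55 in NCI-H1299. In every line both treated libraries lay below both DMSO libraries. The log2 difference was -1.51 ± 0.21 (SE), adjusted p = 1.37e-05 in SKM-1, -0.93 ± 0.21 (SE), adjusted p = 0.00205 in MV-4-11, -1.51 ± 0.21 (SE), adjusted p = 1.7e-05 in Kasumi-1 and -1.81 ± 0.21 (SE), adjusted p = 3.82e-06 in NCI-H1299. Each of these 4 calls was kept without any single library and under every other setting tried. PSMB10 went from 19.6 and 9.68 to 5.95 and 2.12 FPKM in Kasumi-1 and from 8.95 and 5.70 to 2.14 and 1.77 in NCI-H1299, where it fell by 1.67 and 1.47 on the log2 scale (limma adjusted p = 0.0154 and 0.0359). In MV-4-11 it went from 35.9 and 45.1 to 27.1 and 25.5 without overlap and was not called (-0.60, 95% interval -1.74 to 0.55). In SKM-1 the DMSO libraries, 28.2 and 5.29 FPKM, lay on either side of the treated libraries, 12.4 and 7.67, so no direction could be read (95% interval -1.48 to 0.82). The Kasumi-1 call of PSMB10 was lost without DMSO replicate 1 or ABBV-075 replicate 2 (-1.20 to -1.09, adjusted p = 0.144 to 0.175). The NCI-H1299 call was lost without any 1 of the 4 libraries compared (-1.75 to -1.18, adjusted p = 0.055 to 0.19).

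PSMB5, which carries the chymotrypsin-like activity of the constitutive core, went from 52.8 and 27.4 to 21.4 and 19.1 FPKM in SKM-1, from 68.2 and 80.6 to 43.1 and 46.3 in MV-4-11, from 106 and 102 to 57.3 and 35.7 in Kasumi-1 and from 149 and 139 to 63.6 and 62.3 in NCI-H1299. The groups did not overlap in any line. The log2 difference was -0.88 ± 0.24 (SE), adjusted p = 0.00477 in SKM-1, -0.72 ± 0.24 (SE), adjusted p = 0.0239 in MV-4-11, -1.18 ± 0.24 (SE), adjusted p = 0.000571 in Kasumi-1 and -1.18 ± 0.24 (SE), adjusted p = 0.000798 in NCI-H1299. Its call was lost in SKM-1 without DMSO replicate 1 (-0.42, adjusted p = 0.0893) and its value was -1.34 without DMSO replicate 2, and in MV-4-11 without DMSO replicate 2, ABBV-075 replicate 1 or ABBV-075 replicate 2 (-0.77 to -0.60, adjusted p = 0.068 to 0.144). PSMB7, with the trypsin-like activity, fell in NCI-H1299 (from 336 and 327 to 192 and 194 FPKM, log2 difference -0.77 ± 0.11 (SE), adjusted p = 4.9e-05), MV-4-11 (-0.44 ± 0.11 (SE), adjusted p = 0.00604) and Kasumi-1 (-0.29 ± 0.11 (SE), adjusted p = 0.0387). In SKM-1 PSMB7 was not called at -0.03 (95% interval -0.28 to 0.21). The MV-4-11 call was lost without DMSO replicate 2 (-0.31, adjusted p = 0.0893), and the Kasumi-1 call under 10 of 31 other settings, among them without DMSO replicate 1, DMSO replicate 2 or ABBV-075 replicate 2 (-0.35 to -0.23, adjusted p = 0.0598 to 0.181) and without 4 libraries of other groups. PSMB6, with the caspase-like activity, fell in Kasumi-1 (from 65.0 and 57.2 to 35.9 and 18.4 FPKM, -1.21 ± 0.34 (SE), adjusted p = 0.00693), a call that was lost without ABBV-075 replicate 2 (-0.75, adjusted p = 0.119). In NCI-H1299 it went from 212 and 208 to 124 and 118 FPKM without overlap and was not called (-0.79, 95% interval -1.52 to -0.06). The interval uses the spread of PSMB6 over all 12 groups, not that of the NCI-H1299 libraries alone.

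**Figure D4:**
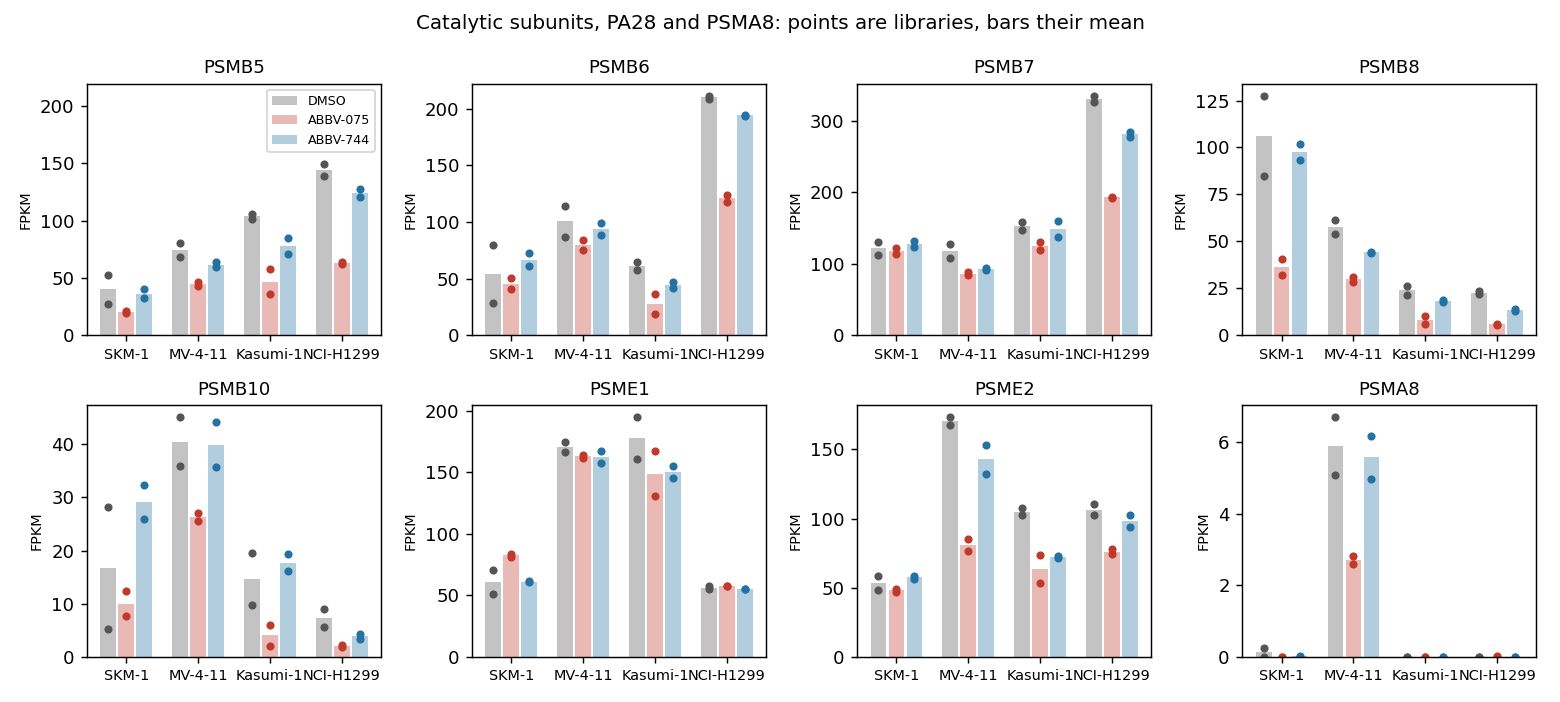
FPKM of the catalytic subunits, the inducible activator subunits PSME1 and PSME2 (labelled PA28) and PSMA8, with 1 point per library, bars for the mean of 2 libraries and colour for treatment. PSMB8 with ABBV-075 lies below DMSO in every line, for example at 5.83 and 5.55 against 21.7 and 23.4 FPKM in NCI-H1299, and the PSMB10 DMSO points of SKM-1 lie far apart, at 28.2 and 5.29 FPKM.

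In the alpha ring 2 of 7 genes fell with ABBV-075 in SKM-1, 1 in MV-4-11, 2 in Kasumi-1 and 2 in NCI-H1299, and 0 rose in any line. The shares of all genes tested in these lines were 29.2%, 22.1%, 32.6% and 26.5% lower and 32%, 20.3%, 24.7% and 20.6% higher. PSMA6 fell in the 3 leukaemia lines, most in MV-4-11, where it went from 327 and 291 to 183 and 176 FPKM without overlap (-0.78 ± 0.14 (SE), adjusted p = 0.00035). Its difference was -0.56 ± 0.14 (SE), adjusted p = 0.00316 in Kasumi-1 and -0.41 ± 0.14 (SE), adjusted p = 0.0194 in SKM-1, and -0.16 in NCI-H1299 (95% interval -0.46 to 0.14, not called). The SKM-1 call was lost without DMSO replicate 1 or ABBV-075 replicate 1 (-0.31 to -0.30, adjusted p = 0.11 to 0.147). PSMA3 fell in SKM-1 (-0.38) and Kasumi-1 (-0.43), and PSMA1 (-0.46) and PSMA7 (-0.47) in NCI-H1299. These 4 calls were each lost without at least 1 library: PSMA3 in SKM-1 without any 1 of the 4 libraries compared (-0.44 to -0.32, adjusted p = 0.0552 to 0.163); PSMA3 in Kasumi-1 without DMSO replicate 2 or ABBV-075 replicate 1 (-0.30 to -0.26, adjusted p = 0.171 to 0.187). PSMA7 lost its call without DMSO replicate 1 (-0.40, adjusted p = 0.0533), and PSMA1 without DMSO replicate 1, DMSO replicate 2 or ABBV-075 replicate 1 (-0.46 to -0.43, adjusted p = 0.0561 to 0.0747). PSMA2, PSMA4 and PSMA5 were called with ABBV-075 in no line.

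The structural beta subunits changed in 2 instances. PSMB4 rose in SKM-1, from 314 and 170.2 to 399 and 333 FPKM (0.66 ± 0.22 (SE), adjusted p = 0.0173). It was 1.10 without DMSO replicate 1, and the call was lost without DMSO replicate 2 or ABBV-075 replicate 1 (0.22 to 0.53, adjusted p = 0.12 to 0.314). PSMB3 fell in Kasumi-1 (-0.88 ± 0.35 (SE), adjusted p = 0.0442), a call near the threshold that 22 of 31 other settings lost, among them without DMSO replicate 1, DMSO replicate 2 or ABBV-075 replicate 2 (-0.94 to -0.49, adjusted p = 0.1 to 0.352) and without 18 libraries of other groups. PSMB1 and PSMB2 were called in no line, with PSMB2 going from 110.1 and 109.9 to 66.0 and 66.3 FPKM in NCI-H1299 without overlap (-0.72, 95% interval -1.77 to 0.32). That interval uses the spread of PSMB2 over all 12 groups, not that of the NCI-H1299 libraries alone. Between replicates the constitutive subunits had an SD of 0.08 in NCI-H1299 DMSO and 0.10 with ABBV-075, against 0.79 in SKM-1 DMSO. In SKM-1 the PSMB2 DMSO libraries read 163 and 31.9 FPKM and the ABBV-075 libraries 126 and 63.5. Its difference of 0.30 turned to -0.85, adjusted p = 0.0241 without DMSO replicate 2.

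Among the ATPases PSMC3 fell in every line. It went from 103 and 85.3 to 52.8 and 42.7 FPKM in SKM-1, from 81.8 and 108 to 50.03 and 46.6 in MV-4-11, from 78.7 and 77.7 to 43.0 and 30.0 in Kasumi-1 and from 144 and 141 to 80.5 and 75.5 in NCI-H1299. No treated library reached a DMSO library of its line. The log2 difference was -0.96 ± 0.16 (SE), adjusted p = 0.000112 in SKM-1, -0.95 ± 0.16 (SE), adjusted p = 0.000252 in MV-4-11, -1.10 ± 0.16 (SE), adjusted p = 3.75e-05 in Kasumi-1 and -0.86 ± 0.16 (SE), adjusted p = 0.0005 in NCI-H1299, and each call was kept under every setting tried. The other 5 ATPases were each called in at most 2 lines. PSMC2 lay between -0.04 and 0.03 in the 4 lines and was called in none. PSMC1 fell in SKM-1 (-0.34) and NCI-H1299 (-0.39), PSMC4 (-0.89) and PSMC5 (-0.44) in Kasumi-1, and PSMC6 in NCI-H1299 (-0.50). The Kasumi-1 call was lost for PSMC4 without ABBV-075 replicate 2 (-0.52, adjusted p = 0.137) and for PSMC5 without DMSO replicate 1, DMSO replicate 2 or ABBV-075 replicate 2 (-0.50 to -0.18, adjusted p = 0.0679 to 0.421). PSMC1 lost its SKM-1 call without DMSO replicate 2, ABBV-075 replicate 1 or ABBV-075 replicate 2 (-0.35 to -0.16, adjusted p = 0.0672 to 0.223) and was -0.53 without DMSO replicate 1. It lost its NCI-H1299 call without DMSO replicate 1, DMSO replicate 2 or ABBV-075 replicate 2 (-0.40 to -0.35, adjusted p = 0.0589 to 0.0893). PSMC6 lost its call without any 1 of the 4 libraries compared (-0.54 to -0.45, adjusted p = 0.0616 to 0.114). PSMC1 has 13 annotated pseudogenes of its name, PSMA6 has 4, PSMD10 has 3 and PSME2 has 2, among 12 proteasome genes with such pseudogenes. Exons of 7 proteasome genes, among them PSMA6, PSMB10, PSMD9 and PSME2, overlap exons of another gene on the same strand. The sources used here do not say how shared reads were assigned.

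Of the 11 non-ATPase subunits 1 rose and 3 fell in SKM-1, 2 rose and 1 fell in MV-4-11, 0 and 2 in Kasumi-1, and 0 and 3 in NCI-H1299. The shares of all genes tested in these lines were 32%, 20.3%, 24.7% and 20.6% higher and 29.2%, 22.1%, 32.6% and 26.5% lower. PSMD14, the deubiquitinase of the lid, fell in SKM-1 (from 88.6 and 113 to 47.5 and 50.04 FPKM, -1.02 ± 0.12 (SE), adjusted p = 3.75e-06), NCI-H1299 (-0.54 ± 0.12 (SE), adjusted p = 0.00204) and MV-4-11 (-0.36 ± 0.12 (SE), adjusted p = 0.0286). Kasumi-1 gave -0.25 (95% interval -0.51 to 0.02) without a call, and the MV-4-11 call was lost without DMSO replicate 1, ABBV-075 replicate 1 or ABBV-075 replicate 2 (-0.41 to -0.30, adjusted p = 0.0605 to 0.165). PSMD7, which pairs with PSMD14 in the lid, fell in SKM-1 (from 109 and 222 to 70.6 and 71.7 FPKM, -1.12 ± 0.20 (SE), adjusted p = 0.000207), with a value of -0.61 without DMSO replicate 2. It fell in NCI-H1299 as well (-0.53 ± 0.20 (SE), adjusted p = 0.0455), though 23 of 31 other settings lost that call, among them without any 1 of the 4 libraries compared (-0.56 to -0.49, adjusted p = 0.107 to 0.163) and without 16 libraries of other groups. PSMD11, a lid subunit, fell in SKM-1 (-0.57, and -0.38 without DMSO replicate 2), Kasumi-1 (-0.46) and NCI-H1299 (-0.48) and was not called in MV-4-11 (0.22, 95% interval -0.07 to 0.50). Its Kasumi-1 call was lost without ABBV-075 replicate 2 (-0.34, adjusted p = 0.0837) and its NCI-H1299 call without ABBV-075 replicate 1 (-0.35, adjusted p = 0.1).

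PSMD2 and PSMD3 rose in MV-4-11. PSMD2, a scaffold subunit of the base, went from 57.9 and 67.5 to 104 and 104 FPKM (0.73 ± 0.18 (SE), adjusted p = 0.00457) and PSMD3 from 51.8 and 50.9 to 77.6 and 77.4 (0.58 ± 0.18 (SE), adjusted p = 0.0147). The PSMD3 call was lost without any 1 of the 4 libraries compared (0.57 to 0.60, adjusted p = 0.0559 to 0.0671), while its value hardly moved. In the other lines neither gene was called (-0.21 to 0.22 for PSMD2 and -0.21 to 0.25 for PSMD3). The response differences between MV-4-11 and SKM-1 were not called (adjusted p = 0.156 for PSMD2 and 0.334 for PSMD3). Those for MV-4-11 minus Kasumi-1 were called at 0.94 (adjusted p = 0.0147) for PSMD2 and 0.79 (adjusted p = 0.0284) for PSMD3, and were lost without MV-4-11 DMSO replicate 1 or Kasumi-1 ABBV-075 replicate 2 (0.62 to 0.83 for PSMD2, adjusted p = 0.0692 to 0.074), and for PSMD3 without any 1 of 6 libraries (0.53 to 0.81, adjusted p = 0.0647 to 0.145). PSMD2 was called higher in the leukaemia mean (0.25, adjusted p = 0.0498), a call lost without any 1 of 20 libraries. PSMD4, a ubiquitin receptor, rose in SKM-1 (from 173 and 163 to 251 and 217 FPKM, 0.47 ± 0.14 (SE), adjusted p = 0.0105), a call lost without ABBV-075 replicate 1 (0.36, adjusted p = 0.0977). PSMD13 fell in Kasumi-1, from 135 and 132 to 90.9 and 70.7 FPKM without overlap (-0.73 ± 0.16 (SE), adjusted p = 0.001). PSMD1, PSMD6, PSMD8 and PSMD12 were called in no line, with PSMD1 at -0.04 and PSMD6 at -0.06 in SKM-1 (0.34, adjusted p = 0.00417 and 0.33, adjusted p = 0.0455 without DMSO replicate 2).

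The activators diverged. PSME4, a large single-chain activator of the core, went from 20.8 and 20.1 to 28.6 and 30.5 FPKM in SKM-1, from 21.7 and 17.5 to 27.8 and 30.0 in MV-4-11, from 28.5 and 30.6 to 36.8 and 41.8 in Kasumi-1 and from 14.9 and 16.4 to 27.4 and 29.6 in NCI-H1299. Every treated library lay above both DMSO libraries of its line. The log2 difference was 0.51 ± 0.11 (SE), adjusted p = 0.00107 in SKM-1, 0.54 ± 0.11 (SE), adjusted p = 0.00113 in MV-4-11, 0.40 ± 0.11 (SE), adjusted p = 0.00698 in Kasumi-1 and 0.82 ± 0.11 (SE), adjusted p = 2.3e-05 in NCI-H1299. The Kasumi-1 call was lost without DMSO replicate 1 or ABBV-075 replicate 2 (0.31 to 0.35, adjusted p = 0.057 to 0.0656). PSME2 moved the other way: it went from 168 and 173 to 76.7 and 85.3 FPKM in MV-4-11, from 102 and 108 to 73.7 and 53.0 in Kasumi-1 and from 111 and 102 to 77.8 and 74.3 in NCI-H1299. It fell in these 3 lines (-1.06 ± 0.14 (SE), adjusted p = 1.58e-05; -0.74 ± 0.14 (SE), adjusted p = 0.000319; -0.48 ± 0.14 (SE), adjusted p = 0.0104) and was not called in SKM-1 (-0.14, 95% interval -0.43 to 0.16). The NCI-H1299 call of PSME2 was lost without DMSO replicate 1 or ABBV-075 replicate 2 (-0.45 to -0.42, adjusted p = 0.0645 to 0.079). PSME1, its partner in the same ring, was not called in MV-4-11, Kasumi-1 or NCI-H1299 (-0.07, -0.26 and 0.03). In SKM-1 it rose from 50.7 and 70.3 to 83.8 and 81.0 FPKM (0.46 ± 0.14 (SE), adjusted p = 0.0116, and 0.69 without DMSO replicate 2), a call lost without DMSO replicate 1 or ABBV-075 replicate 1 (0.23 to 0.43, adjusted p = 0.0568 to 0.142).

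PSME3, the nuclear activator, went from 61.5 and 61.2 to 34.1 and 33.1 FPKM in Kasumi-1 and fell (-0.85 ± 0.15 (SE), adjusted p = 0.000198). It fell in SKM-1 too (-0.41, and -0.69 without DMSO replicate 2), a call lost without DMSO replicate 1, ABBV-075 replicate 1 or ABBV-075 replicate 2 (-0.43 to -0.13, adjusted p = 0.0734 to 0.38). In MV-4-11 the PSME3 libraries went from 46.9 and 40.1 to 55.5 and 56.5 FPKM, higher without overlap but not called (0.36, 95% interval 0.04 to 0.68). The inhibitor PSMF1, which binds the ends of the core, fell in Kasumi-1 (-0.40 ± 0.16 (SE), adjusted p = 0.0477), and 25 of 31 other settings lost that call, among them without DMSO replicate 1, DMSO replicate 2 or ABBV-075 replicate 2 (-0.48 to -0.19, adjusted p = 0.0622 to 0.41) and without 18 libraries of other groups. Its differences in the other lines lay between -0.19 and 0.02.

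**Figure D5:**
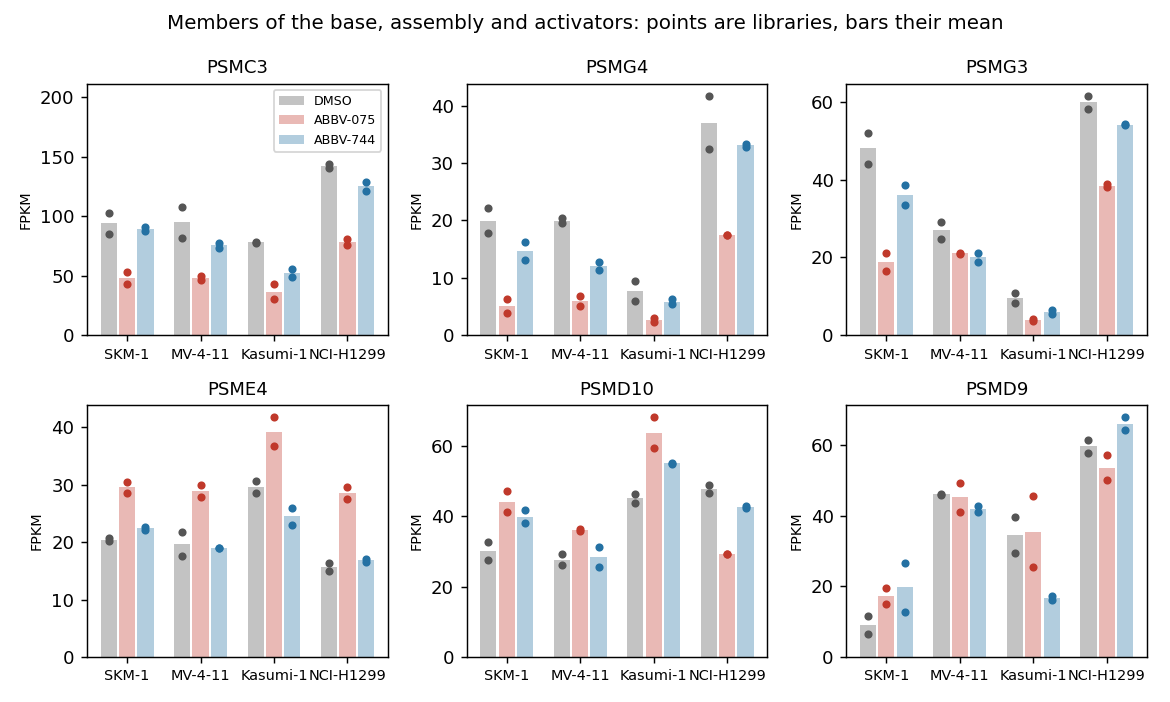
FPKM of the ATPase PSMC3, the assembly chaperones PSMG4, PSMG3, PSMD10 and PSMD9 and the activator PSME4, with 1 point per library, bars for the mean of 2 libraries and colour for treatment. With ABBV-075, PSMC3 and PSMG4 are below DMSO and PSME4 above it in every line, and PSMD10 is above DMSO in the leukaemia lines and below it in NCI-H1299 (29.3 and 29.3 against 46.6 and 48.8 FPKM).

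Among the core assembly chaperones 3 of 4 fell in SKM-1 and in MV-4-11, 2 in Kasumi-1 and 2 in NCI-H1299, and 0 rose. The shares of all genes tested in these lines were 29.2%, 22.1%, 32.6% and 26.5% lower and 32%, 20.3%, 24.7% and 20.6% higher. PSMG4, which works with PSMG3 on the alpha ring, went from 17.7 and 22.1 to 6.23 and 3.93 FPKM in SKM-1, from 19.5 and 20.5 to 6.76 and 5.06 in MV-4-11, from 9.38 and 5.86 to 2.30 and 3.002 in Kasumi-1 and from 41.7 and 32.4 to 17.4 and 17.5 in NCI-H1299. The groups were separate in each line, and PSMG4 had the lowest log2 difference of all proteasome genes in SKM-1 and MV-4-11. The log2 difference was -1.80 ± 0.21 (SE), adjusted p = 2.8e-06 in SKM-1, -1.61 ± 0.21 (SE), adjusted p = 1.83e-05 in MV-4-11, -1.22 ± 0.21 (SE), adjusted p = 0.000169 in Kasumi-1 and -1.03 ± 0.21 (SE), adjusted p = 0.000969 in NCI-H1299, kept under every setting tried. PSMG3 went from 52.2 and 44.1 to 21.2 and 16.5 FPKM in SKM-1, from 10.7 and 8.18 to 4.23 and 3.54 in Kasumi-1 and from 58.1 and 61.7 to 38.9 and 38.0 in NCI-H1299, and fell in these lines (-1.31 ± 0.15 (SE), adjusted p = 2.02e-06; -1.09 ± 0.15 (SE), adjusted p = 1.74e-05; -0.63 ± 0.15 (SE), adjusted p = 0.00313). In MV-4-11 PSMG3 was not called (-0.34, 95% interval -0.66 to -0.01), whereas PSMG1 (-0.74) and PSMG2 (-0.66), the other chaperone pair, fell there. PSMG1 fell in SKM-1 as well, from 105 and 67.5 to 32.2 and 41.7 FPKM (-1.18 ± 0.20 (SE), adjusted p = 9.38e-05), and its MV-4-11 call was lost without DMSO replicate 1 (-0.59, adjusted p = 0.0758). The PSMG4, PSMB8 and PSME4 exons overlap exons of other genes on the opposite strand (SLC22A23 and TUBB2B, an antisense RNA, and ACYP2), as do those of 19 proteasome genes in all, and no source used here says whether reads were counted by strand, so reads of such partners cannot be told apart.

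The base chaperones differed by line. PSMD10, also known as gankyrin, went from 32.7 and 27.6 to 41.1 and 47.1 FPKM in SKM-1, from 29.3 and 26.0 to 35.9 and 36.2 in MV-4-11 and from 43.9 and 46.3 to 59.5 and 68.1 in Kasumi-1, and from 46.6 and 48.8 to 29.3 and 29.3 in NCI-H1299. The treated libraries were above DMSO in the 3 leukaemia lines and below it in NCI-H1299, each without overlap. PSMD10 rose in SKM-1 (0.53 ± 0.12 (SE), adjusted p = 0.00137), MV-4-11 (0.37 ± 0.12 (SE), adjusted p = 0.0216) and Kasumi-1 (0.49 ± 0.12 (SE), adjusted p = 0.00293) and fell in NCI-H1299 (-0.68 ± 0.12 (SE), adjusted p = 0.000276). The MV-4-11 call was lost without DMSO replicate 2, ABBV-075 replicate 1 or ABBV-075 replicate 2 (0.29 to 0.38, adjusted p = 0.0788 to 0.159). The difference between the leukaemia mean and NCI-H1299 was itself called at 1.15 ± 0.14 (SE), adjusted p = 3.93e-05. PSMD9 rose in SKM-1 (from 11.5 and 6.41 to 15.1 and 19.6 FPKM, 0.92 ± 0.31 (SE), adjusted p = 0.0157), a call lost without DMSO replicate 2 or ABBV-075 replicate 2 (0.55 to 0.75, adjusted p = 0.11 to 0.18), and was called in no other line. PSMD5 fell in Kasumi-1 (-0.39) and NCI-H1299 (-0.43). The Kasumi-1 call of PSMD5 was lost without DMSO replicate 1, DMSO replicate 2 or ABBV-075 replicate 1 (-0.39 to -0.27, adjusted p = 0.07 to 0.144). In NCI-H1299 it was lost without any 1 of the 4 libraries compared (-0.45 to -0.41, adjusted p = 0.0556 to 0.0817).

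The tissue restricted subunits were near the floor. PSMA8, the alpha subunit of the testis, read 6.70 and 5.10 FPKM in the MV-4-11 DMSO libraries, 2.59 and 2.82 with ABBV-075 and 6.19 and 4.96 with ABBV-744, and lay below 1 FPKM in the other 3 lines. It fell with ABBV-075 (-0.89 ± 0.11 (SE), adjusted p = 8.98e-06) and was not called with ABBV-744 (-0.07). PSMB11, the thymus subunit, was at or near 0 in every library. PSMC3IP went from 6.45 and 11.7 to 3.48 and 3.099 FPKM in SKM-1, from 17.1 and 14.3 to 5.54 and 5.85 in MV-4-11, from 6.61 and 4.68 to 5.17 and 5.21 in Kasumi-1 and from 11.2 and 10.4 to 2.73 and 4.38 in NCI-H1299. It fell in SKM-1 (-1.19 ± 0.21 (SE), adjusted p = 0.000179), MV-4-11 (-1.31 ± 0.21 (SE), adjusted p = 0.00013) and NCI-H1299 (-1.40 ± 0.21 (SE), adjusted p = 6.77e-05), and its Kasumi-1 libraries overlapped (-0.09, 95% interval -0.54 to 0.37).

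Marker genes of the cell types moved with the treatment. Over the 7 markers the summed level in Kasumi-1 was 424 to 432 FPKM in DMSO and 195 to 232 with ABBV-075, and 1 marker was called higher and 5 lower. In SKM-1 it was 1156 to 1891 and 1545 to 1748 FPKM, with 3 markers higher and 3 lower, and in MV-4-11 1513 to 1712 and 1172 to 1183 FPKM, with 1 lower. The myeloid factor SPI1 fell in SKM-1 (-3.26) and Kasumi-1 (-3.71) and was not called in MV-4-11 (-0.46). The part of such a shift in the PSMB8 and PSMB10 differences was not tested. In NCI-H1299 the same 7 markers summed to 2.75 to 4.17 FPKM over all libraries. The 6 carcinoma markers summed to 728 to 744 FPKM in DMSO and 1444 to 1486 with ABBV-075 in NCI-H1299, where KRT8 (1.44) and KRT18 (1.31) rose and CAV1 (-1.08) and YAP1 (-0.37) fell. In MV-4-11 they summed to 82.1 to 89.1 and 31.2 to 36.7 FPKM, with TGFBI lower (-1.49). With ABBV-744 in SKM-1 the haematopoietic sum was 2488 to 2690 FPKM, above both DMSO libraries. The part of these shifts in the proteasome differences of the same groups was not tested.

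ABBV-744 at 200 nM changed few proteasome genes. It gave 3 higher and 2 lower of 46 in SKM-1, 0 of 47 in MV-4-11, 0 higher and 7 lower of 46 in Kasumi-1 and 0 of 46 in NCI-H1299. Of all genes tested, 14.9% and 12.5% were called higher and lower in SKM-1, 4.61% and 6.75% in MV-4-11, 8.69% and 15% in Kasumi-1, and 1.4% and 3.95% in NCI-H1299. Scaled to one sum of the nuclear genes, the share of higher among all called genes went from 54.3% to 32.9% in SKM-1, from 40.6% to 59.8% in MV-4-11 and from 36.8% to 23.4% in Kasumi-1, and on centring to 41.9%, 32% and 50%. At an unadjusted limma p under 0.05 there were 7 proteasome genes in MV-4-11 and 1 in NCI-H1299. In Kasumi-1 the genes that fell were PSME3 (from 61.5 and 61.2 to 36.6 and 32.3 FPKM, -0.82 ± 0.15 (SE), adjusted p = 0.00116), PSMG1 (-0.66), PSMG3 (-0.57), PSMC3 (-0.57), PSME2 (-0.53), PSMD11 (-0.51) and PSMD9 (-1.004). The PSME3 call was kept without any single library and the other 6 were not. PSMG1 lost its call without any 1 of the 4 libraries compared (-0.73 to -0.59, adjusted p = 0.0684 to 0.14), PSMG3 without DMSO replicate 1 or ABBV-744 replicate 1 (-0.45 to -0.39, adjusted p = 0.125 to 0.162) and PSMC3 without DMSO replicate 1, DMSO replicate 2 or ABBV-744 replicate 1 (-0.58 to -0.48, adjusted p = 0.0769 to 0.144). PSME2 lost it without DMSO replicate 2, ABBV-744 replicate 1 or ABBV-744 replicate 2 (-0.55 to -0.50, adjusted p = 0.0541 to 0.0745), PSMD11 without DMSO replicate 1, ABBV-744 replicate 1 or ABBV-744 replicate 2 (-0.52 to -0.48, adjusted p = 0.0524 to 0.0719) and PSMD9 without DMSO replicate 1, ABBV-744 replicate 1 or ABBV-744 replicate 2 (-1.05 to -0.80, adjusted p = 0.0866 to 0.185). With each line fitted alone these 6 were not called either, and without a filter PSMD9 was not. In SKM-1 PSMA2 (0.71), PSMD9 (1.03) and PSMD10 (0.39) rose and PSMD11 (-0.52) and PSMD14 (-0.37) fell. PSMA2 lost its call without DMSO replicate 2, ABBV-744 replicate 1 or ABBV-744 replicate 2 (0.22 to 0.84, adjusted p = 0.0545 to 0.377) and was 1.20 without DMSO replicate 1, and PSMD9 lost its call without DMSO replicate 2 or ABBV-744 replicate 1 (0.52 to 0.65, adjusted p = 0.195 to 0.278). PSMD10 lost it without DMSO replicate 2, ABBV-744 replicate 1 or ABBV-744 replicate 2 (0.27 to 0.46, adjusted p = 0.0537 to 0.167), PSMD11 without DMSO replicate 2 or ABBV-744 replicate 1 (-0.49 to -0.33, adjusted p = 0.0626 to 0.0795) and PSMD14 without DMSO replicate 2, ABBV-744 replicate 1 or ABBV-744 replicate 2 (-0.47 to -0.20, adjusted p = 0.0518 to 0.269) and without 4 libraries of other groups. The SKM-1 count of 5 was 0 without ABBV-744 replicate 1 and with the line fitted alone, and 24 without DMSO replicate 1. Scaling to the sum of the nuclear genes ended the calls of PSMA2 and PSMD10 there.

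PSMB8 read 93.6 and 102 FPKM with ABBV-744 in SKM-1, 43.8 and 44.4 in MV-4-11, 17.4 and 18.5 in Kasumi-1 and 14.1 and 12.7 in NCI-H1299. In MV-4-11, Kasumi-1 and NCI-H1299 these lay below both DMSO libraries and above both ABBV-075 libraries, and in SKM-1 within the range of the DMSO libraries. The difference from DMSO was called in no line (-0.09, -0.38, -0.38 and -0.71, with a 95% interval of -1.15 to -0.26 in NCI-H1299). PSMG4 with ABBV-744 gave -0.41, -0.68, -0.32 and -0.15 in SKM-1, MV-4-11, Kasumi-1 and NCI-H1299, again with no call, and PSME4 gave 0.13, -0.04, -0.26 and 0.10. PSMB5 gave -0.08, -0.27, -0.42 and -0.22, each without a call (95% interval -0.93 to 0.09 in Kasumi-1). In the mean of the 3 leukaemia lines 1 proteasome gene was called higher and 10 lower with ABBV-744, where 18.2% and 17.3% of all genes were, and 4 higher and 22 lower with ABBV-075, where 33.5% and 34.4% were. The 10 genes lower in that mean with ABBV-744 were PSMA6, PSMC3, PSMD7, PSMD11, PSMD14, PSME2, PSME3, PSMG1, PSMG3 and PSMG4, with PSMG1 at -0.56 ± 0.11 (SE) and PSMG4 at -0.47 ± 0.12, and the gene higher was PSMD10 at 0.24 ± 0.07. PSMD11, PSMG1, PSMG3 and PSMG4 kept this call without any single library, and PSMD10 lost it without SKM-1 ABBV-744 replicate 1, MV-4-11 DMSO replicate 2 or MV-4-11 ABBV-744 replicate 1 (0.19 to 0.21, adjusted p = 0.0517 to 0.0604).

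The direct difference between the compounds was tested in each of the 4 lines, at unequal doses. ABBV-744 minus ABBV-075 gave 13 proteasome genes higher and 2 lower in SKM-1, 5 and 1 in MV-4-11, 6 and 2 in Kasumi-1, and 10 and 1 in NCI-H1299. Of all genes tested 22.7% and 21% were higher and lower in SKM-1, 12.5% and 9.44% in MV-4-11, 21.2% and 16.5% in Kasumi-1, and 18.6% and 16% in NCI-H1299. PSMC3 was higher with ABBV-744 in all 4 lines (0.89, 0.63, 0.52 and 0.68), as was PSMG4 (1.39, 0.93, 0.90 and 0.88). PSME4 was lower with ABBV-744 in all 4 (-0.38, -0.58, -0.66 and -0.73). PSMB8 was higher with ABBV-744 in SKM-1 (1.42 ± 0.21 (SE), adjusted p = 5.37e-05), Kasumi-1 (1.12 ± 0.21 (SE), adjusted p = 0.000652) and NCI-H1299 (1.11 ± 0.21 (SE), adjusted p = 0.000756), and in MV-4-11 the difference was 0.55 with a 95% interval of 0.11 to 0.99. PSMB5 differed in SKM-1 (0.80), Kasumi-1 (0.76) and NCI-H1299 (0.97), and PSMD10 in NCI-H1299 (0.52). In MV-4-11 the PSMC3 call was lost without ABBV-075 replicate 2 or ABBV-744 replicate 2 (0.58 to 0.59, adjusted p = 0.0769 to 0.0841) and the PSMG4 call without ABBV-075 replicate 2 (0.75, adjusted p = 0.0737), and in SKM-1 the PSME4 call without ABBV-075 replicate 2 or ABBV-744 replicate 2 (-0.37 to -0.34, adjusted p = 0.0635 to 0.0804). In Kasumi-1 the PSMC3 call was lost without ABBV-075 replicate 2 or ABBV-744 replicate 2 (0.27 to 0.43, adjusted p = 0.156 to 0.274) and the PSMB5 call without ABBV-075 replicate 2 or ABBV-744 replicate 2 (0.42 to 0.63, adjusted p = 0.151 to 0.262). In SKM-1 the PSMB5 call was lost without ABBV-075 replicate 2 or ABBV-744 replicate 2 (0.66 to 0.72, adjusted p = 0.0784 to 0.105). Fitting each line alone ended the calls of PSMB5 and PSME4 in SKM-1 and of PSMB5 and PSMC3 in Kasumi-1, and scaling to the sum of the nuclear genes that of PSMC3 in Kasumi-1.

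Response differences between lines were tested directly for ABBV-075. The leukaemia mean minus NCI-H1299 gave 3 genes higher and 0 lower (10.5% and 8% of all genes), SKM-1 minus MV-4-11 2 and 5 (15.6% and 13.6%), SKM-1 minus Kasumi-1 4 and 3 (18.7% and 12.2%), and MV-4-11 minus Kasumi-1 7 and 1 (16.7% and 10.5%). PSMD10 differed most between the leukaemia mean and NCI-H1299, and PSMB7 (0.52) and PSMC6 (0.58) were the other 2 genes called there. PSMB7 lost the call without NCI-H1299 DMSO replicate 1, NCI-H1299 ABBV-075 replicate 1 or NCI-H1299 ABBV-075 replicate 2 (0.50 to 0.53, adjusted p = 0.0512 to 0.0652), and PSMC6 without any 1 of 10 libraries of the comparison (0.53 to 0.62, adjusted p = 0.0523 to 0.177) and without 8 libraries of other groups. PSME3 fell in Kasumi-1 and was not called in MV-4-11, and the difference between these responses was 1.21 ± 0.22 (SE), adjusted p = 0.000856. PSMC4 with ABBV-075 read 83.6 and 86.6 FPKM in MV-4-11, above its DMSO libraries (66.9 and 77.8), and 45.2 and 26.7 in Kasumi-1, below its own (65.9 and 64.2). That difference was 1.12 ± 0.36 (SE), adjusted p = 0.0315, and it was lost without MV-4-11 DMSO replicate 1, MV-4-11 ABBV-075 replicate 1, MV-4-11 ABBV-075 replicate 2, Kasumi-1 DMSO replicate 1, Kasumi-1 DMSO replicate 2 or Kasumi-1 ABBV-075 replicate 2 (0.75 to 1.15, adjusted p = 0.0641 to 0.163). PSMC3IP differed between MV-4-11 and Kasumi-1 by -1.23 ± 0.30 (SE, limma adjusted p = 0.00761). PSMB8, PSMB5, PSMC3, PSMG4 and PSME4 were called in none of these 4 response differences. For the leukaemia mean minus NCI-H1299 their 95% intervals were -0.01 to 1.01 for PSMB8, -0.33 to 0.84 for PSMB5, -0.55 to 0.26 for PSMC3, -1.04 to 0.01 for PSMG4 and -0.62 to -0.06 for PSME4. With ABBV-744 the same differences gave 0, 0, 1 and 1 gene, namely PSMD9 for SKM-1 minus Kasumi-1 (2.03) and PSME3 for MV-4-11 minus Kasumi-1 (0.99). The PSMD9 call was lost without SKM-1 DMSO replicate 2, SKM-1 ABBV-744 replicate 1, Kasumi-1 DMSO replicate 1 or Kasumi-1 ABBV-744 replicate 1 (1.53 to 1.98, adjusted p = 0.0566 to 0.0739). The PSME3 call was lost without MV-4-11 DMSO replicate 2, MV-4-11 ABBV-744 replicate 1, Kasumi-1 DMSO replicate 1, Kasumi-1 DMSO replicate 2 or Kasumi-1 ABBV-744 replicate 2 (0.88 to 0.997, adjusted p = 0.0606 to 0.0852). Of all genes 0.305% and 0.265%, 3.68% and 1.76%, 2.96% and 1.02%, and 2.67% and 1.23% were called higher and lower.

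A list of 30 partner genes of the proteasome gave 9 higher and 8 lower with ABBV-075 in SKM-1, 9 and 5 in MV-4-11, 5 and 7 in Kasumi-1, and 4 and 4 in NCI-H1299. The list's median log2 differences were 0.05, 0.06, 0.13 and -0.09, against 0.05, -0.01, -0.09 and -0.06 over all genes tested, of which 32%, 20.3%, 24.7% and 20.6% were called higher and 29.2%, 22.1%, 32.6% and 26.5% lower. UCHL5, a deubiquitinase bound to the regulatory particle, fell in all 4 lines (-1.98, -0.66, -1.11 and -0.77). ZFAND5, a proteasome activator, rose in all 4 (0.99, 0.45, 1.36 and 0.80), as did NFE2L2, a regulator of oxidant defence genes (0.50, 0.48, 0.49 and 0.47). NFE2L1, a transcription factor of proteasome subunit genes, fell in SKM-1 (-0.50) and was not called in the other lines (-0.43, -0.01 and 0.13). Among 10 interferon and antigen processing genes (9 tested in NCI-H1299), 5 rose and 2 fell in SKM-1, 3 and 2 in MV-4-11, 5 and 4 in Kasumi-1, and 4 and 2 in NCI-H1299, beside the same shares of all genes. Their median log2 differences were 0.23, 0.14, 0.24 and 0.29. B2M, the light chain of MHC class I, rose in all 4 lines (1.07, 0.59, 0.58 and 0.59), and so did the interferon signal carrier STAT2 (1.04, 0.49, 1.17 and 0.87). PSMB8 fell in each of these lines, as did the peptide trimming enzyme ERAP1 (-0.44, -0.63, -1.24 and -0.82). For the partner, interferon and antigen processing genes no values were read without single libraries or under other settings. How far their SKM-1 values depend on the SKM-1 DMSO libraries was thus not tested.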

How the data were processed

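Poly-A RNA of 4 cell lines was sequenced in 12 groups of 2 libraries, numbered within a group in accession order. The authors deposited one table of FPKM values per gene and library, and per the submitters' processing notes DESeq2 was among their tools. What it was used for, the aligner, the build and the annotation: not given in the sources used here. The depth is unknown, so no counting error is given.

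The values were tested as log2(FPKM + 1), with a pseudocount of 1, in limma 3.58.1 (R 4.3.3, statmod 1.5.0, with trended and robust variances). One model held 12 group means over all 24 libraries with 12 residual degrees of freedom. The filter kept genes with 1 FPKM or more in 2 or more libraries per line compared. Benjamini-Hochberg adjustment ran separately in each of 29 comparisons, with calls at an adjusted p under 0.05. An exact permutation test of 2 against 2 libraries cannot go below p = 0.333. The procedure was tested on simulated data. Promoter windows were searched with Python 3.11.15, and figures were drawn with matplotlib 3.10.9.

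The genes were taken by symbol, and roles and gene lists were written by hand. The members and lists were chosen with earlier results of these data known. Every member was described, those called in all lines with all values. Some genes are not reported here. Alternatives were a pseudocount of 0.1, no filter, a filter of 5 FPKM, scaling to one sum of the nuclear genes, centring on the median, variances without trend, each line fitted alone, and leaving out each library. Among single genes they were read for the proteasome genes only, not for partner, interferon, marker or check genes.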

Additional observations from a re-analysis of the deposited data

Results flagged for a closer look

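With ABBV-075, PSMD10 responded differently in the leukaemia lines and NCI-H1299: the interaction contrast in limma gave a log2 difference of 1.15 (SE 0.14, adjusted p = 3.93e-05), with the libraries higher than DMSO in the 3 leukaemia lines and lower in NCI-H1299.

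Between leukaemia lines, the ABBV-075 response of PSMC3IP differed by -1.10 for SKM-1 minus Kasumi-1 (limma adjusted p = 0.0138) and by -1.23 for MV-4-11 minus Kasumi-1 (limma adjusted p = 0.00761). The first ended at -0.71 (adjusted p = 0.0578) when SKM-1 DMSO replicate 2 was left out and at -0.89 (adjusted p = 0.0612) when Kasumi-1 DMSO replicate 2 was.

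The ABBV-075 response of the ATPase PSMC4 differed by 1.13 for SKM-1 minus Kasumi-1 (limma adjusted p = 0.0288) and by 1.12 for MV-4-11 minus Kasumi-1 (limma adjusted p = 0.0315). Without Kasumi-1 ABBV-075 replicate 2 the values were 0.76 (adjusted p = 0.144) and 0.75 (adjusted p = 0.163), and without SKM-1 DMSO replicate 2 the first was 0.60 (adjusted p = 0.115). Leaving out 1 of 5 libraries in all ended the first call (adjusted p = 0.0595 to 0.144), and 1 of 6 the second (adjusted p = 0.0641 to 0.163).

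The activator PSME3 differed in its ABBV-075 response by 1.21 for MV-4-11 minus Kasumi-1 (limma adjusted p = 0.000856). With ABBV-744, the base chaperone PSMD9 differed by 2.03 for SKM-1 minus Kasumi-1 (limma adjusted p = 0.0143). It was not called without SKM-1 DMSO replicate 2 (1.65), SKM-1 ABBV-744 replicate 1 (1.53), Kasumi-1 DMSO replicate 1 (1.82) or Kasumi-1 ABBV-744 replicate 1 (1.98).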

How the results depend on the processing

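Of 88 calls of a proteasome gene for a compound against DMSO, 39 were kept under every setting and 50 under every setting that kept all libraries, and 0 of the 88 changed sign. The cause of the changes below was not tested. No paired analysis was possible because the labels give no replicate numbers, and those used here follow accession order and only name the libraries. With n = 2 a group and unknown depth, small differences could not be resolved.

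With each line fitted alone, the calls against DMSO numbered 8 with ABBV-075 in SKM-1 and 35 in NCI-H1299, and with ABBV-744 0 in SKM-1, 6 in MV-4-11, 1 in Kasumi-1 and 7 in NCI-H1299. ABBV-744 against ABBV-075 then gave 5, 11, 5 and 34 in SKM-1, MV-4-11, Kasumi-1 and NCI-H1299, and 0 genes were higher with ABBV-075 in all 4 lines. Scaling to one sum without mitochondrial genes gave 1 call with ABBV-744 in MV-4-11 and 1 in NCI-H1299. Under that scaling the response differences numbered 5 for ABBV-075 (leukaemia mean minus NCI-H1299), and for ABBV-744 1 (SKM-1 minus MV-4-11) and 4 (MV-4-11 minus Kasumi-1). Centring on the median gave 4 calls with ABBV-744 in MV-4-11 and 1 in NCI-H1299, and variances without trend gave 3 in MV-4-11.

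Left out one at a time, the libraries gave 14 to 28 calls with ABBV-075 in SKM-1, 12 to 20 in MV-4-11, 12 to 28 in Kasumi-1 and 11 to 26 in NCI-H1299, and with ABBV-744 0 to 24, 0 to 4, 1 to 11 and 0 to 1. ABBV-744 against ABBV-075 gave 9 to 26, 4 to 11, 3 to 17 and 8 to 21. The leukaemia means gave 22 to 32 with ABBV-075 and 6 to 20 with ABBV-744. The ABBV-075 response differences gave 1 to 12 (leukaemia mean minus NCI-H1299), 5 to 21 (SKM-1 minus MV-4-11), 2 to 26 (SKM-1 minus Kasumi-1) and 2 to 15 (MV-4-11 minus Kasumi-1), and those of ABBV-744 0 to 2, 0 to 22, 0 to 24 and 0 to 5. In DMSO the range was 21 to 32 for SKM-1 minus MV-4-11, 20 to 36 for SKM-1 minus Kasumi-1, 27 to 38 for SKM-1 minus NCI-H1299, 15 to 26 for MV-4-11 minus Kasumi-1, 27 to 36 for MV-4-11 minus NCI-H1299, 22 to 32 for Kasumi-1 minus NCI-H1299 and 28 to 36 for the leukaemia mean. Genes lower in all 4 lines numbered 3 to 6 and higher 0 to 1.

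Some SKM-1 values that were uncalled with all libraries were called in one direction without SKM-1 DMSO replicate 2 and in the other without replicate 1. In that order, with ABBV-075 PSMB2 was -0.85 and 1.46, PSMB3 -0.58 and 1.07, PSMB6 -0.81 and 0.65, PSMD1 0.34 and -0.43, and PSMD6 0.33 and -0.45, and with ABBV-744 PSMB2 was -1.03 and 1.28. With a pseudocount of 0.1, the log2 difference of PSMB8 minus PSMB5 was -2.55 in Kasumi-1 and -3.45 in NCI-H1299 with ABBV-075 and -3.20 in NCI-H1299 with ABBV-744. That of PSMB10 minus PSMB7 was -3.07 in Kasumi-1 with ABBV-744, and in NCI-H1299 -6.56 with ABBV-075 and -6.16 with ABBV-744.

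Scaling to one sum moved the median of all genes by 0.10 for ABBV-075 in NCI-H1299, by -0.15 for ABBV-744 in SKM-1, by -0.12 for ABBV-744 against ABBV-075 in Kasumi-1 and by 0.27, 0.19, 0.13 and -0.13 for DMSO in SKM-1 minus MV-4-11, SKM-1 minus Kasumi-1, SKM-1 minus NCI-H1299 and MV-4-11 minus NCI-H1299. Among response differences it moved it by up to -0.24 (ABBV-744, SKM-1 minus MV-4-11). Centring moved it by -0.13, -0.16 and 0.18 for DMSO in SKM-1 minus Kasumi-1, MV-4-11 minus Kasumi-1 and Kasumi-1 minus NCI-H1299, and among response differences by up to -0.17 (ABBV-744, SKM-1 minus Kasumi-1). With ABBV-075 scaling to one sum moved the share of higher among all called genes from 52.3% to 47.4% in SKM-1, from 48% to 55.5% in MV-4-11, from 43.1% to 44.6% in Kasumi-1 and from 43.7% to 53.5% in NCI-H1299.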
